A study of Homo sapiens with 13 samples.

Results

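Chromatin accessibility at 10 genes of the epithelial-mesenchymal transition (EMT) was compared between H82 and H146, both established cell lines of human small cell lung cancer (SCLC). The genes are 6 transcription factors (ZEB1, ZEB2, SNAI1, SNAI2, TWIST1 and TWIST2) and 4 structural genes (CDH1, CDH2, VIM and FN1), out of 20007 protein-coding genes in GENCODE release 44. The rule that selects them uses their names and no measured value, but they were chosen with earlier results of these data known. H82 is a line of the NEUROD1 subtype of SCLC, H146 is of another subtype, and each is a single cultured line. Open DNA was read by ATAC-seq, an assay that inserts sequencing adapters into accessible chromatin with a transposase, in 3 untreated H82 cultures, 3 H82 cultures given FHD-286 at 100 nM for 14 days, 4 untreated H146 cultures and 3 H146 cultures given the same dose for the same time. FHD-286 inhibits SMARCA4 and SMARCA2, the motor subunits of the SWI/SNF chromatin remodelling complexes. The data used were 1 list of accessible regions (an atlas) per line, pooled over its untreated and treated cultures.

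In EMT, epithelial cells loosen their junctions and take on the shape and motility of mesenchymal cells. The ZEB, SNAI and TWIST proteins are the classical EMT transcription factors. They repress CDH1, which encodes the adherens junction protein E-cadherin, while mesenchymal genes such as VIM, CDH2 and FN1 are switched on. The miR-200 family of microRNAs opposes the programme by targeting ZEB1 and ZEB2 transcripts. SCLC lines mostly grow in suspension, and EMT genes are often studied in them in relation to neuroendocrine and non-neuroendocrine states.

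An atlas region has a start and an end on hg38 and no height, read count or culture of origin. There was thus 1 value per line, with no spread between replicates and no test, and differences between the lines are given as descriptions beside the same measure over all protein-coding genes. The effect of FHD-286 was not tested, and the depth of each library was unknown. Whether a region was open in many cells of a line or in a few cannot be told apart.

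The lines were checked against cell type markers. NEUROD1, the factor that names the subtype of H82, had a region close to the transcription start site (TSS, 1 kb to either side) in H82 and none in H146. Its gene window was covered to 21.5% in H82 and 6.33% in H146. The neuroendocrine genes INSM1, SYP and CHGA, the tuft-like marker POU2F3 and the non-neuroendocrine marker YAP1 each had a region there in H82 and in H146. So did 75.4% of all protein-coding genes. In H82 and H146, 16.6% and 17.5% of the window was covered at INSM1, 22.8% and 13.2% at SYP and 14.4% and 14.1% at CHGA. At POU2F3 the shares were 14.0% and 20.4%, and at YAP1 2.85% and 1.94%.

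Many region boundaries fell on the same base in both atlases. Of the H82 regions, 35829 started on the same base as an H146 region and 35862 ended on the same base, whereas each other offset of up to 20 bp held between 114 and 547 starts and between 124 and 543 ends. In all, 25.3% of H82 regions and 30.0% of H146 regions had a start or an end on the same base as a region of the other line, and 19180 regions were identical. The identical regions made up 27.2% of the H146 regions on chromosome 6 and 19.0% on chromosome 18, against 3.81% on chromosome 22. Their origin was not tested.

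**Figure D1:**
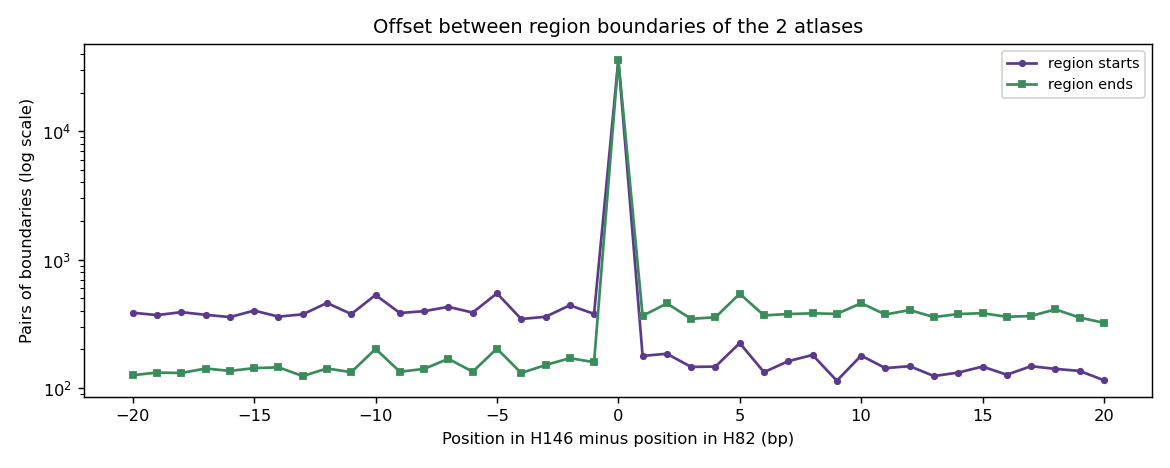
Number of pairs of region boundaries (log scale) by the position in H146 minus the position in H82, for starts and for ends. The 35829 starts and 35862 ends at an offset of 0 stand far above the other offsets, none of which holds more than 547.

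In the windows of the 10 genes, 39 of 150 H82 regions (26.0%) and 39 of 132 H146 regions (29.5%) had such a boundary, close to the atlas shares above. They were spread unevenly, with 14 at TWIST2, 14 at CDH2, 4 at CDH1, 2 each at ZEB2, SNAI2 and TWIST1, 1 at VIM and 0 at ZEB1, SNAI1 and FN1. No TSS region of the 10 genes was among them. Covered shares of the genes with such boundaries are given below with and without those regions. The pooled split of bases, the line-only counts and the miR-200 loci are given with those regions only.

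The TSS regions were compared first. A gene was taken to have one if any base of a region lay within 1 kb of the 5′ end of the gene. All 10 genes had a TSS region in H82, where 80.5% of all protein-coding genes did. In H146, 9 of the 10 genes had one, where 77.2% of all genes did. TWIST2 was the gene with a TSS region in H82 alone, a pattern seen in 5.09% of all genes, and no member had one in H146 alone. Taking the starts of all annotated transcripts, or the MANE Select start, gave the same counts of 10 and 9.

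The TSS regions of ZEB1, ZEB2 and SNAI1 were wider in H82. At ZEB1 the region was 2895 bp wide in H82 and 897 bp in H146, and the whole of the H146 region lay within that of H82. At ZEB2 the widths were 1546 bp and 591 bp. At SNAI1 they were 5789 bp and 2625 bp, and the H82 region overlapped 4 separate H146 regions. Widths and numbers of regions depend in part on the merging of regions within 500 bp of each other.

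TSS regions of the other genes with 1 region in each line were closer in width. SNAI2 had 2079 bp in H82 and 2578 bp in H146. At TWIST1 they were 3302 bp and 3285 bp, and at CDH2 3591 bp and 3781 bp. At FN1 they were 1528 bp and 1443 bp. CDH1 had 2 TSS regions in H82, of 794 and 379 bp, that both lay within the single H146 region of 1802 bp.

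The first base of the gene itself lay within a region for 9 members in H82 and for 6 in H146. It was outside the regions of both lines at TWIST2. At ZEB1, ZEB2 and VIM it was inside the H82 region and outside that of H146, which in each case began further into the gene. This depends on the start used: the first base of the MANE Select transcript lay in a region for 9 members in H82 and 8 in H146, and for ZEB1 and ZEB2 it was inside the regions of both lines. No share over all protein-coding genes was taken for either base, so these counts do not set the members apart.

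The windows around each gene (its body and 50 kb on each side) were compared next by number of regions and by covered share, the percentage of window bases inside regions. Together they held 150 regions in H82, with a median width of 453.5 bp, and 132 in H146, with a median of 487.5 bp. Covered share was higher in H82 at 6 genes and in H146 at 4, and 63.7% of all protein-coding genes were higher in H82. The transcription factors and the structural genes leaned in opposite directions: 5 of 6 factors were higher in H82 and 3 of 4 structural genes in H146. The median log2 ratio of H82 over H146 was 0.70 over the 6 factors and -0.36 over the 4 structural genes, beside 0.19 over all genes. These groups are small, and the direction was not tested.

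**Figure D2:**
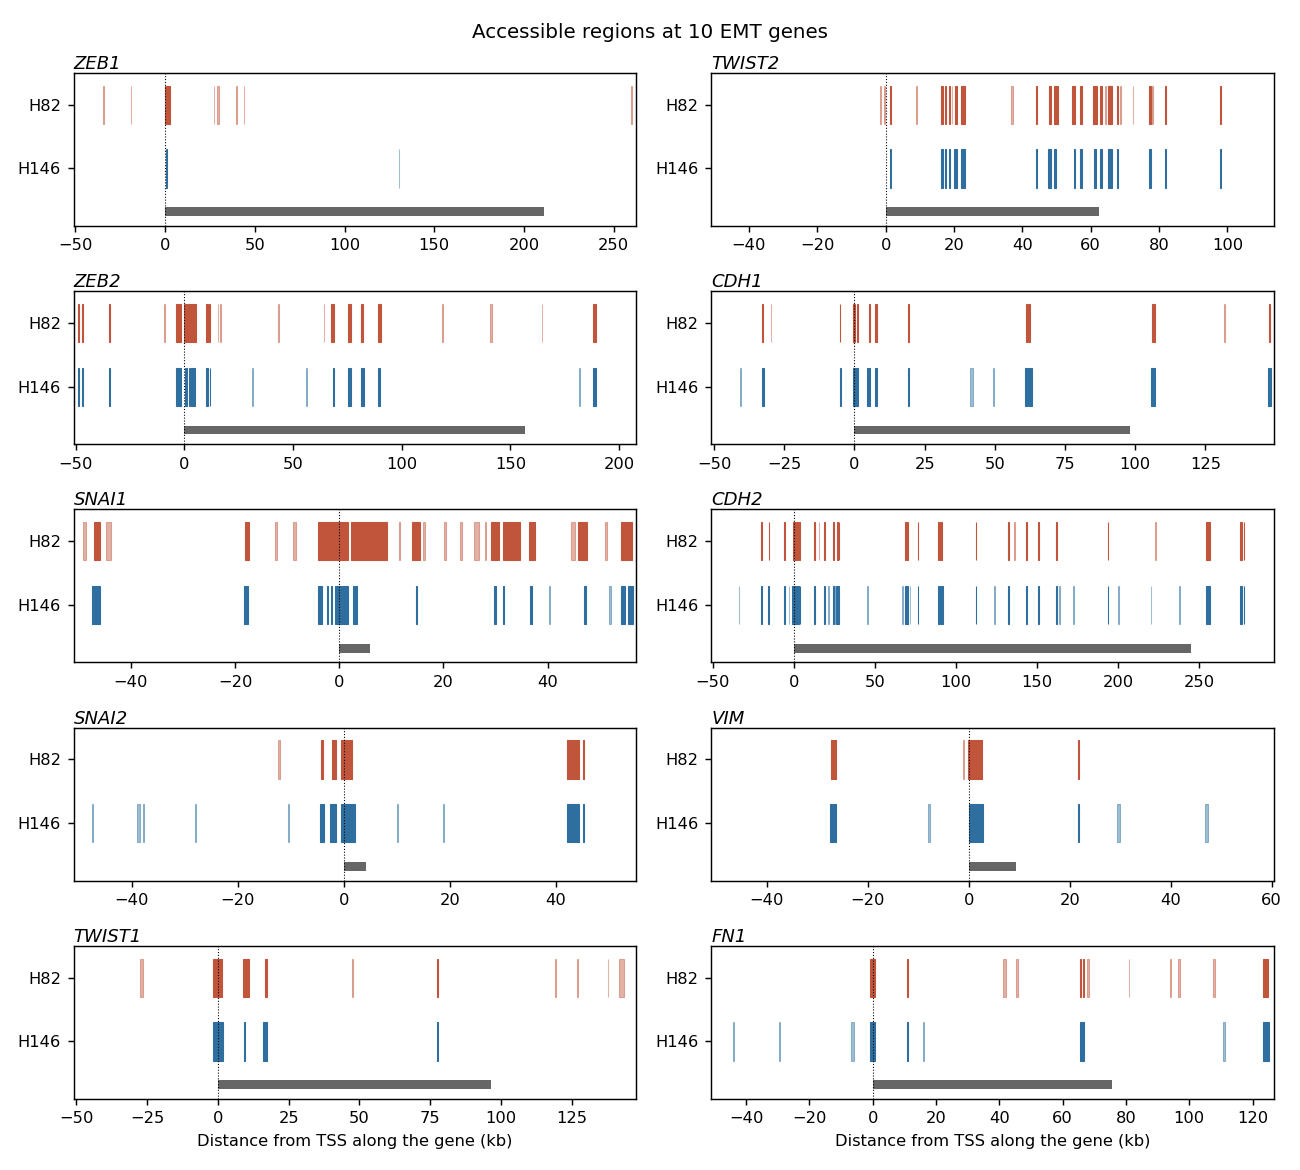
Accessible regions at each of the 10 genes by distance from the TSS along the gene (kb), with H82 above and H146 below in each panel; full colour marks regions shared by the lines, pale colour line-only regions, and the grey bar the gene body. ZEB1 shows 8 regions in H82 and 2 in H146, while SNAI2 shows 6 and 12.

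A gene was called higher in a line when its covered share was at least 1.5 times that in the other. ZEB1, SNAI1 and TWIST1 were called higher in H82, as were 29.3% of all genes. SNAI2 and CDH1 were called higher in H146, as were 5.23% of all genes. The share of members called in H82, 3 of 10, was thus near the background, and that in H146, 2 of 10, rests on a pair of genes. The median covered share of the members was 5.06% in H82 and 5.50% in H146, below the all-gene medians of 7.53% and 6.16%.

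**Figure D3:**
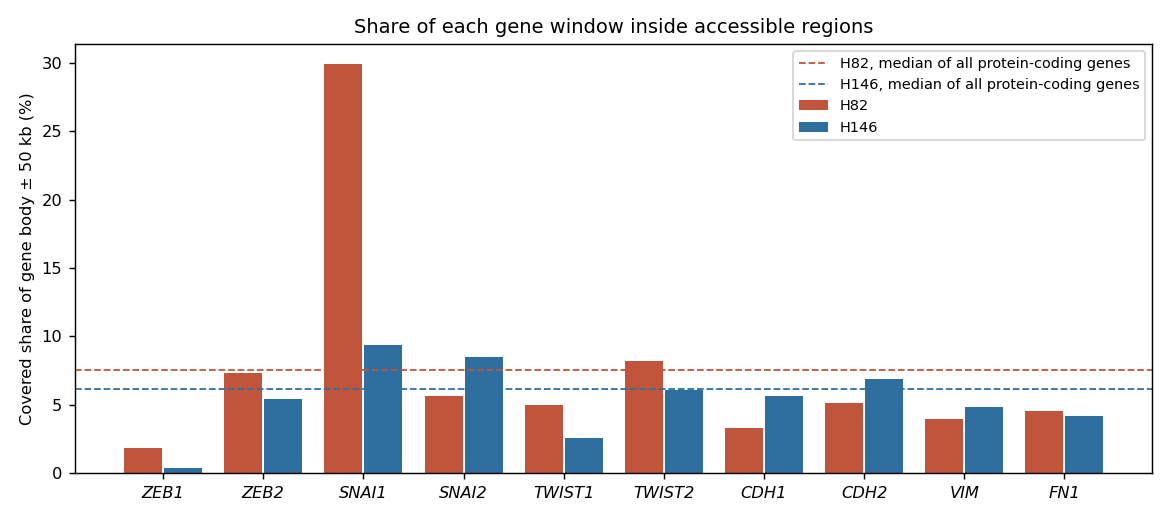
Covered share of the gene body and 50 kb to either side (%) for each gene in H82 and H146, as bars from 0, with dashed lines at the all-gene medians of 7.53% and 6.16%. SNAI1 reaches 29.9% in H82 and ZEB1 lies lowest in both lines.

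ZEB1 encodes a zinc finger repressor that binds E-boxes in the CDH1 promoter. Its gene spans chr10:31318495-31529814 on the plus strand. Its window held 8 regions in H82 and 2 in H146, and 1.85% and 0.369% of it was covered, a log2 ratio of 2.33. This ratio was above that of 97.5% of all genes, although both shares were low. In the 5 Mb around the window the ratio was 0.52, so relative to its surroundings ZEB1 stood at 1.81.

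Bases inside a region of a line are called accessible in that line. Of the bases accessible at ZEB1 in either line, 80.9% were accessible in H82 alone and 4.20% in H146 alone. All H82 regions other than the TSS region were H82-only. The widest of these, of 988 bp, lay in an intron at 29.43 kb from the TSS. The H146 window held, beside the TSS region, 1 narrow intronic region.

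The H82-only regions of at most 300 bp within ZEB1 introns are printed here on the plus strand of hg38, since most of the difference at this gene lies outside the TSS region. They were searched on both strands for CAGGTG, the E-box bound by ZEB and SNAI proteins, which would stand in capitals.
ZEB1 H82-only, chr10:31345588-31345808: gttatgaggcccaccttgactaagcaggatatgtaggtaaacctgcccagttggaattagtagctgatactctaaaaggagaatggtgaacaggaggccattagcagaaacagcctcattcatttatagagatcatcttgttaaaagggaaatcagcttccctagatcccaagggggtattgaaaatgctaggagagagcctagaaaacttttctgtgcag
ZEB1 H82-only, chr10:31362382-31362581: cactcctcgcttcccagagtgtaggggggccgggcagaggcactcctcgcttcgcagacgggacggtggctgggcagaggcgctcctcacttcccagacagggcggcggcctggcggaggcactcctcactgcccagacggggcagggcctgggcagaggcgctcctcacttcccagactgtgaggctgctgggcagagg

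Both sequences held 0 matches, where 26.0% and 25.7% of H82 regions within 10% of their widths held at least 1. Among the longer or more distant H82-only regions, the intronic region of 988 bp held 2 and the downstream region of 228 bp held 1. The second sequence, 200 bp wide, was repetitive: 46 of its 189 overlapping 12-base words occurred more than once, against 0 in the first.

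ZEB2, the paralogue of ZEB1, spans chr2:144364364-144521057 on the minus strand. Its window held 21 regions in H82 and 17 in H146, with 7.29% and 5.38% covered, a log2 ratio of 0.44. The surrounding 5 Mb had a ratio of 0.60, so that ZEB2 stood at -0.16 relative to it. Most accessible bases at ZEB2, 55.1%, were common to both lines. Within 10 kb of the TSS 38.6% of bases were covered in H82 and 25.0% in H146. This is a dense cluster in both lines, with a region of 3675 bp in H82 and another of 2165 bp upstream that reaches the start sites of LINC01412 and LINC02993. Without regions that shared a boundary base 6.67% and 4.65% was covered. Line-only regions numbered 8 in H82, up to 647 bp wide, and 3 in H146, up to 394 bp wide.

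SNAI1 encodes Snail, a zinc finger repressor of CDH1. The gene spans chr20:49982980-49988886 on the plus strand. Its window held 22 regions in H82 and 16 in H146, and 29.9% and 9.35% of it was covered, a log2 ratio of 1.67. By number of regions alone the ratio was 0.46, so the H82 regions were also the wider ones. The 5 Mb around SNAI1 had 9.96% covered in H82 and 5.77% in H146, a ratio of 0.79, which left 0.89 for SNAI1 relative to it.

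The 5789 bp TSS region of H82 overlapped 4 separate H146 regions. A second H82 region, of 6768 bp, began within the gene and ran on downstream, and 12.6% of its bases were accessible in H146. Further downstream, H82 regions of 3357, 1607 and 1551 bp stood over H146 regions of 200 to 322 bp. Of the 14 shared H146 regions here, 10 lay wholly inside an H82 region, where 35.0% of shared H146 regions did over the whole atlas. H82-only regions numbered 12, the widest of 1043 bp, and H146-only regions 2. The start site of RNF114, a neighbouring ubiquitin ligase gene, had a shared region upstream of SNAI1 of 1232 bp in H82 and 1416 bp in H146.

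SNAI2 encodes Slug, the paralogue of Snail. It spans chr8:48917598-48921740 on the minus strand and was the factor with the larger covered share in H146. Its window held 6 regions in H82 and 12 in H146, with 5.60% and 8.50% covered, a log2 ratio of -0.60. Of all genes, 5.02% had a lower ratio. The surrounding 5 Mb leaned the same way, at -0.30, and SNAI2 relative to it was at -0.30. Without regions that shared a boundary base the shares were 3.28% and 6.14%.

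All 5 shared H82 regions at SNAI2 lay wholly within H146 regions, as did 67.4% of shared H82 regions over the whole atlas. Of the accessible bases, 3.64% were in H82 alone, against 36.5% in H146 alone. The H146-only regions were narrow, 7 in number and at most 466 bp wide. A wide shared region lay 43 kb past the TSS, of 2146 bp in H82 and 2183 bp in H146.

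TWIST1 encodes a basic helix-loop-helix factor of mesoderm and neural crest. GENCODE gives it a gene body of chr7:19020991-19117636 on the minus strand, since a long transcript is included. Its window held 10 regions in H82 and 4 in H146, and 4.98% and 2.54% was covered, a log2 ratio of 0.97. Here the surroundings leaned the other way, at -0.15, and TWIST1 relative to them was at 1.12. Without regions that shared a boundary base the shares were 4.53% and 1.80%.

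The difference at TWIST1 lay away from the promoter, where the lines had regions of near equal width. All 4 H146 regions were shared, and 6 H82 regions were H82-only. Of these, 4 lay in HDAC9, a histone deacetylase gene next to TWIST1, with the widest of 1577 bp, and 1 of 851 bp lay at the start of FERD3L, another basic helix-loop-helix gene. At 9.82 kb from the TSS a region was 2105 bp wide in H82, where H146 had 261 bp.

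TWIST2, a paralogue of TWIST1, spans chr2:238848032-238910534 on the plus strand. Its window held 27 regions in H82 and 18 in H146, with 8.20% and 6.09% covered, a log2 ratio of 0.43. The window is the one in which exact boundaries most often coincided, with 11 identical regions. Without regions that shared a boundary base, the shares fell to 3.04% and 1.61%, a log2 ratio of 0.92, and TWIST2 was then called higher in H82. Leaving out identical regions takes the same bases from both lines, which by itself moves a log2 ratio away from 0. That call is thus not a separate result. All 18 H146 regions were shared, and 9 H82 regions were H82-only, none wider than 354 bp. Within 10 kb of the TSS 5.22% was covered in H82 and 1.40% in H146.

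The TSS region that TWIST2 had in H82 alone was narrow, at 280 bp, and ended just before the first base of the gene. It was lost when regions under 500 bp were left out. With a TSS window of 5 kb TWIST2 also had a region in H146, of 281 bp and shared by the lines, at 1.48 kb. The sequence of the H82-only region is printed because no other member had its TSS regions, by the 1 kb rule, in a single line. It had a GC content of 73.2% and held 0 matches to CAGGTG or to the other E-box words searched, on either strand, so it has no capitals. CAGGTG was held by 29.7% of H82 regions of like width.
TWIST2 H82-only TSS region, chr2:238847683-238847962, plus strand, hg38: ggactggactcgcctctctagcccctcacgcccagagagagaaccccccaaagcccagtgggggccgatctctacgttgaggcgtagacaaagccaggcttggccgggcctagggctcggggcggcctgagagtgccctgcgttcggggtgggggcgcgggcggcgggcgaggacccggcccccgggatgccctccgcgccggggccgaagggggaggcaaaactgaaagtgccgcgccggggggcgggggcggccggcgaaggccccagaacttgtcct

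CDH1, the E-cadherin gene, spans chr16:68737292-68835537 on the plus strand. It was called higher in H146, as was SNAI2, while ZEB1, SNAI1 and TWIST1 were called in H82 and ZEB2 and TWIST2 in neither line. The CDH1 window held 13 regions in each line, but 3.27% of bases were covered in H82 and 5.61% in H146, a log2 ratio of -0.78. Of all genes, 2.73% had a lower ratio. The surrounding 5 Mb had the opposite sign, 0.35, which put CDH1 at -1.13 relative to it. Without regions that shared a boundary base the shares were 2.30% and 4.04%.

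The regions stood at largely the same places in both lines and were wider in H146. Of the 11 shared H82 regions 10 lay wholly inside an H146 region, where 67.4% of shared H82 regions did over the whole atlas. No H146 region lay inside one of H82, where 35.0% of shared H146 regions did. In the first part of the gene, H146 had 865 bp at 4.97 kb and 934 bp at 7.66 kb from the TSS, where H82 had 295 bp and 528 bp. Line-only regions were few, 2 in H82 and 3 in H146, up to 419 bp wide in H82 and up to 883 bp in H146. Bases accessible in H146 alone made up 45.3% of the accessible bases, against 6.23% in H82 alone. At the start of TANGO6, downstream of CDH1, the shared region was 1242 bp wide in H82 and 1323 bp in H146.

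CDH2 encodes N-cadherin, found on both mesenchymal and neural cells. It spans chr18:27932879-28177946 on the minus strand. Its window held 27 regions in H82 and 35 in H146, with 5.14% and 6.88% covered, a log2 ratio of -0.42. The 5 Mb around it had a ratio of -0.43, and CDH2 relative to them was at 0.00. Chromosome 18 as a whole had 7620 regions in H82 and 9658 in H146. Line-only regions numbered 3 in H82 and 13 in H146, the widest being 664 bp and 747 bp. Without regions that shared a boundary base the shares were 2.75% and 4.06%.

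VIM encodes vimentin, the intermediate filament of mesenchymal cells, and spans chr10:17228241-17237593 on the plus strand. It had few regions in either line, 4 in H82 and 6 in H146, with 3.93% and 4.84% covered, a log2 ratio of -0.30. Leaving out regions with a shared boundary base gave 3.65% and 4.55%. The main TSS region was 2801 bp wide in H82 and 2627 bp in H146, and both covered most of the same bases. H82 had a further region of 210 bp just upstream that H146 lacked. H146 had 3 line-only regions, of 220, 404 and 595 bp. The other shared regions lay at the start of TRDMT1, a tRNA methyltransferase gene, and 21.77 kb past the TSS.

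The lines differed at VIM in where the TSS region began. The H82 region included the first base of the gene and the 168 bases before it, and the H146 region began inside the gene. The 250 bases before the VIM start are shown from the RefSeq promoter table (GRCh38.p14), in which 6 of the 10 genes were matched (ZEB1, ZEB2, TWIST2, CDH2, VIM and FN1). Capitals mark the bases inside the H82 region, and 0 of the 250 were inside an H146 region. The stretch held 0 matches to CAGGTG on either strand, which 17.5% of the promoters in the table held in the same 250 bases.
VIM promoter, chr10:17227991-17228240, plus strand: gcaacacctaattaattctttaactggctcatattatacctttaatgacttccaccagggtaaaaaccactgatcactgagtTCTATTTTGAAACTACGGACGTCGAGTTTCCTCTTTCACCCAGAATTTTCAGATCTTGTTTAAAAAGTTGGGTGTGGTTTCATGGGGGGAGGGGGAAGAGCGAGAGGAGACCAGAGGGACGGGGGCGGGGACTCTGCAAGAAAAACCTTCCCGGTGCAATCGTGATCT

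FN1, which encodes the matrix protein fibronectin, spans chr2:215360440-215436073 on the minus strand. Its window held 12 regions in H82 and 9 in H146, with 4.52% and 4.20% covered, a log2 ratio of 0.11. The near equal shares came from different places. Only 32.1% of accessible bases at FN1 were common to both lines, 36.5% were in H82 alone and 31.5% in H146 alone. Line-only regions numbered 7 in H82, up to 822 bp wide and all within or past the gene. In H146 there were 5, and the widest, of 904 bp, was centred at -6.32 kb from the TSS. The H82-only regions of 657, 793 and 380 bp were centred in ATIC, a neighbouring protein-coding gene, as was the H146-only region of 526 bp. Within 10 kb of the TSS the order turned, with 7.64% covered in H82 and 11.7% in H146.

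**Figure D4:**
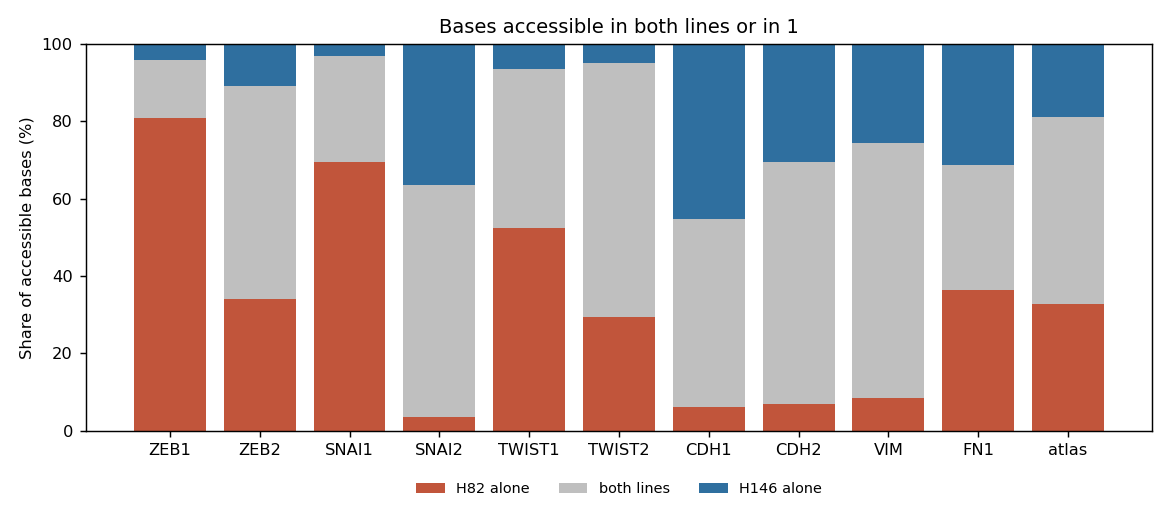
Bases inside a region of either line, split into those accessible in H82 alone, in both lines and in H146 alone (% of accessible bases), for each gene window and for the whole atlas. ZEB1 has 80.9% in H82 alone, CDH1 has 45.3% in H146 alone, and FN1 divides nearly evenly.

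Over the 10 windows together, 47.1% of accessible bases were common to both lines, 35.0% were in H82 alone and 17.9% in H146 alone. Over the whole atlases the figures were 48.2%, 32.8% and 19.0%. By number, 56 of the 150 H82 regions (37.3%) overlapped no H146 region, beside 40.8% of H82 regions in all protein-coding gene windows. Of the 132 H146 regions, 37 (28.0%) overlapped no H82 region, beside 28.5%. The pooled split of bases rests on SNAI1, which gave 43.8% of the bases accessible in H82 alone. Without SNAI1, the remaining 9 genes had 52.6% of bases in common, 25.3% in H82 alone and 22.1% in H146 alone. The pool also joins genes that differed in opposite directions, with a common part from 14.9% at ZEB1 to 66.1% at VIM.

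Within these windows, line-only regions were narrower than shared ones and mostly distant from promoters. Their median width was 346.5 bp in H82 and 339 bp in H146, and that of shared regions 589 bp and 591 bp. The same figures were not taken over all genes, so they do not set these genes apart. At the TSS of a member there were 2 H82-only regions, at TWIST2 and VIM, and 0 H146-only regions. By position, 60 of the H82 regions (40.0%) and 61 of the H146 regions (46.2%) were centred in introns of the member. Upstream regions numbered 25 and 29, and downstream regions 45 and 31. Regions centred in another protein-coding gene numbered 17 in H82 and 7 in H146.

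**Figure D5:**
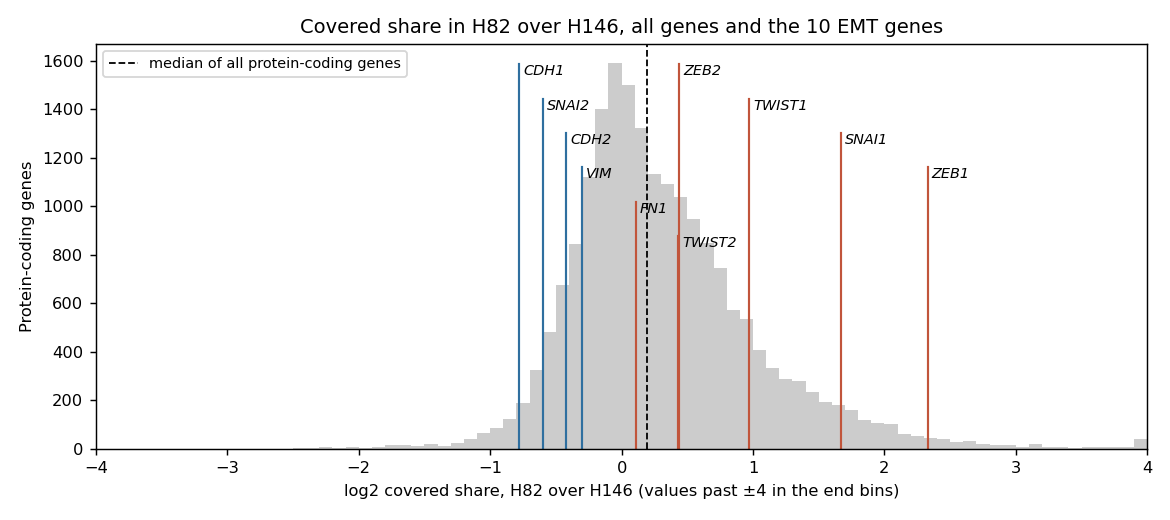
Histogram of the log2 ratio of covered share, H82 over H146, over the 19626 protein-coding genes with a finite ratio, with a vertical line for each of the 10 genes and a dashed line at the median of 0.19. ZEB1 (2.33) and SNAI1 (1.67) lie in the upper tail and CDH1 (-0.78) and SNAI2 (-0.60) in the lower tail.

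Short words that are known binding sites of EMT and lineage factors were counted in the member regions, on both strands. The words were CAGGTG (ZEB and SNAI proteins), CAGATG and CAGCTG (E-boxes of proneural factors), TGANTCA (AP-1), GGAATG (TEAD), TGTTTAC (FOXA), TAATCC (OTX2) and AACCNGTT (GRHL), and the E-box words cannot overlay one another at the same position. CAGGTG occurred 148 times in the H82 regions, or 1.21 per kb, and 1.31 per kb over the whole H82 atlas. In the H146 regions it occurred 137 times, or 1.42 per kb, with 1.44 per kb over the H146 atlas. CAGATG stood at 0.870 per kb in H82 and 0.734 in H146, beside 0.932 and 0.807 in the atlases. CAGCTG was rarer in the member regions, at 0.698 per kb in H82 and 0.641 in H146, beside 0.823 and 0.826. GGAATG was rarer too, at 0.443 and 0.403, beside 0.570 and 0.558. TGANTCA stood at 0.320 in the H82 members and atlas alike, and at 0.331 beside 0.347 in H146. The remaining words were below the atlas density in H82 and above it in H146. TGTTTAC was at 0.148 beside 0.151 per kb in H82 and at 0.258 beside 0.192 in H146. TAATCC was at 0.632 beside 0.680 in H82 and at 0.506 beside 0.416 in H146. AACCNGTT, with 5 matches in H82 and 7 in H146, was at 0.0410 beside 0.0582 and at 0.0723 beside 0.0647. CAGGTG differed among members, from 0.409 per kb at TWIST1 to 2.16 at CDH1 in H82, and from 0.567 at VIM to 3.48 at ZEB1 in H146. The ZEB1 value rests on 4 matches in 2 regions. A match is a match of letters and does not show binding.

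The miR-200 loci were read as the counterpart of ZEB1 and ZEB2. Their mature sequences, from the RefSeq miRNA table (GRCh38.p14), are given with the seed, bases 2 to 8, in capitals, because the seed divides the family. The seed is AAUACUG in miR-200b-3p, miR-429 and miR-200c-3p and AACACUG in miR-200a-3p and miR-141-3p.
hsa-miR-200b-3p: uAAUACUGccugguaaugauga
hsa-miR-200a-3p: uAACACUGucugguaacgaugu
hsa-miR-429: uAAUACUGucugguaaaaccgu
hsa-miR-200c-3p: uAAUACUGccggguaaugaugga
hsa-miR-141-3p: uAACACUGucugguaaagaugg

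Both seeds are encoded at each locus, and the lines differed at the locus on chromosome 1. The cluster of MIR200B, MIR200A and MIR429, chr1:1167104-1169087, lay entirely inside a 7107 bp region in H82, whereas 0 of its 1984 bases lay in a region called in H146. The nearest H146 regions, of 259 and 200 bp, flanked it. The window of MIR200A was covered to 66.6% in H82 and 16.8% in H146, a log2 ratio of 1.99. The surrounding 5 Mb were covered to 30.1% and 9.37%, a ratio of 1.68, and MIR200A relative to them was at 0.31.

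The cluster of MIR200C and MIR141, chr12:6963699-6964191, was wholly inside a region in both lines, of 9166 bp in H82 and 9418 bp in H146. These 2 regions started on the same base, so that the locus counts among those with a coinciding boundary. The window of MIR200C was covered to 32.7% in H82 and 37.0% in H146.

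Other genes of the programme were read from fixed lists. Over all protein-coding genes, 75.4% had a TSS region in both lines. All 8 epithelial regulators, among them genes of the GRHL, OVOL and ESRP families, had regions at the TSS in H82 and in H146. ESRP1, an epithelial splicing regulator, was called higher in H82, with 6.91% against 4.34% covered. The surrounding 5 Mb had a ratio of 1.64, above that of ESRP1 itself at 0.67. The counts called were 1 of 8 in H82 and 0 in H146, where 29.3% and 5.23% of all genes were. Of 10 junction and keratin genes 8 had a TSS region in both lines and 2 in neither, CLDN4 and CDH3, whose MANE Select starts did have one in both. CLDN4 and TJP1, both of tight junctions, were called higher in H82, at 22.7% against 13.7% and 4.27% against 2.01%. None was called higher in H146. These counts, 2 and 0 of 10, stand beside 29.3% and 5.23% of all genes. The surroundings of CLDN4 and TJP1 had ratios of 1.03 and 1.36, each above the ratio of the gene, 0.73 and 1.09.

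Among 8 further EMT factors, 7 had a TSS region in both lines and FOXC2 had none in either. TCF3, which encodes the E2A proteins, was called higher in H82, with 41.0% against 9.78% covered and a log2 ratio of 2.07, in surroundings of 1.54. KLF8 was called higher in H82 with low shares of 0.770% and 0.510%, a log2 ratio of 0.59 in surroundings of 0.36. TCF4, which encodes E2-2, was called higher in H146, with 10.7% against 22.4% covered and a log2 ratio of -1.07, in surroundings of -0.55. The counts called, 2 of 8 in H82 and 1 of 8 in H146, stand beside 29.3% and 5.23% of all genes. TCF3 and TCF4 proteins are partners of TWIST proteins.

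Of 13 mesenchymal and signalling genes, 11 had a TSS region in both lines. Both MMP2 and CDH11 lacked one within 1 kb of the 5′ end of the gene. At the MANE Select start, MMP2 had a region in H82 alone, ACTA2 in H146 alone and CDH11 in both lines. Taking the starts of all annotated transcripts, MMP2 and ACTA2 each had a region in both lines. The genes TGFBR1, SPARC, COL1A1, MMP2 and S100A4 were called higher in H82, 5 of 13 where 29.3% of all genes were, and 0 in H146. TGFBR1, a receptor of TGF-beta, a classical inducer of EMT, was covered to 10.1% in H82 and 3.98% in H146, a log2 ratio of 1.35 in surroundings of 0.77. COL1A1, a collagen gene, had a ratio of 0.67, below that of its surroundings at 0.75. The ratios of SPARC and S100A4 were 0.86 and 0.85, in surroundings of 0.26 and 0.57. The matrix protease gene MMP2 was covered to 3.15% and 1.09%, a log2 ratio of 1.53 in surroundings of -0.06.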

How the data were processed

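ATAC-seq was done on 13 cultures. Per the labels and the study's methods, the authors trimmed paired reads with Trim Galore 0.4.4, aligned them to hg38 with Bowtie2 2.3.4 and dropped duplicates with Picard. Regions were called in each sample by MACS2, filtered against a blacklist and, where within 500 bp of each other, merged into 1 atlas per line. The deposited values are region starts and ends in bp; the score, count and sample of a region are not given, and 0 columns held values of single samples. The authors' counting with featureCounts 1.6.0 and their own test of FHD-286 were not used here. In H146, the methods place 3 controls in another sequencing batch than the remaining control and the treated cells, and the labels do not say which. A region called in any library of a line enters its atlas. H146 had the smaller atlas, 174093 regions (139 Mb) against 206927 (167 Mb), and the part of library number and depth in this was not tested.

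Regions on chromosomes 1 to 22, X and Y were intersected with GENCODE release 44 (Python 3.11.15, numpy 2.4.6, pandas 2.3.3), with coordinates given 1-based. The interval functions were tested on simulated data. Regions that overlapped by at least 1 bp were shared. All 10 members are named. Other EMT genes are named where a TSS region stood in 1 line or covered shares differed by 1.5 times, and the miR-200 loci in any case. CLDN4, CDH3, FOXC2, CDH11 and ACTA2 were named after their values were seen. Members and lists were chosen with earlier results of these data known. Alternatives were other TSS windows and starts, the gene body alone, 10 and 100 kb flanks, division by the median of each line, regions of at least 500 bp, number of regions, overlap of 50% of both regions and sharing within 500 bp. The MANE Select start, leaving SNAI1 out of the pooled bases, division by the surrounding 5 Mb (2.5 Mb to either side) and leaving out regions with a coinciding boundary were added after the data were seen. Some items are not reported here.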

Additional observations from a re-analysis of the deposited data

How the results depend on the processing

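ZEB1, SNAI1, TWIST1 and TWIST2 kept a higher covered share in H82, and SNAI2 in H146, under all 8 alternatives. One of these, leaving out regions with a coinciding boundary, is a weak check of direction. It changed nothing at ZEB1 and SNAI1, which held no such regions, and elsewhere it took out bases largely common to both lines. CDH1 was higher in H146 under 7 of them, with a log2 ratio of 0.00 by number of regions. CDH2 also kept its sign except for 0.00 relative to the surrounding 5 Mb. ZEB2, VIM and FN1 changed sign: ZEB2 was at -0.16 relative to its surroundings, VIM at 0.08 within 10 kb of the TSS, and FN1 at -0.62 within 10 kb of the TSS, -0.18 after division by the median of each line and -0.21 relative to its surroundings. The widest moves in size were SNAI1 at 0.46 by number of regions and TWIST2 at 1.89 within 10 kb of the TSS.

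The 2 genes called higher in H146 became 1 with the gene body alone, 0 with 100 kb to either side, 4 after division by the median of each line, 1 with regions of at least 500 bp and 1 relative to the surrounding 5 Mb. Within 10 kb of the TSS the 2 were CDH1 (-0.87) and FN1 (-0.62), with SNAI2 at -0.52. By number of regions they were SNAI2 (6 in H82 and 12 in H146) and VIM (4 and 6), with CDH1 at 0.00. The count in H82 stayed at 3 or 4, but the genes called changed. TWIST1 was not called with the gene body alone (0.49) or within 10 kb of the TSS (0.36). SNAI1 was not called by number of regions (0.46). ZEB2 was called with the gene body alone, within 10 kb of the TSS and with 100 kb to either side. TWIST2 was called within 10 kb of the TSS, by number of regions and without regions that shared a boundary base. ZEB1 was called under all alternatives. With an overlap of 50% of both regions required, H82-only regions rose from 37.3% to 56.0% and H146-only regions from 28.0% to 50%. TSS regions were found for 9 or 10 genes in H82 and for 6 to 10 in H146, where the first base of the gene alone gave 6. No paired analysis was possible because each atlas pools its replicates. With 1 atlas per line and unknown depth, the line cannot be told apart from its libraries, and a region absent from an atlas was not called, which does not show closed chromatin.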
